A study of Mus musculus with 11 samples.

Results

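The genes described here encode enzymes and chaperones that fold, hydroxylate and trim collagen: Serpinh1, P4ha1, P4ha2, P4ha3, Plod1, Plod2, Plod3, Pcolce, Bmp1 and Crtap. They were taken by symbol from the deposited count table, which held all 10 of them among 48897 genes, and all 10 passed the expression filter that left 21343 genes for testing. Polyadenylated RNA was sequenced as paired reads from mouse arteries on day 7 after an injury. The design asks which genes depend on Nrf3, a transcription factor encoded by Nfe2l3, while the injured wall remodels. Wire injury of the femoral artery was studied in Nrf3-/- mice (3 libraries) and in flox mice (3 libraries). Ligation of the carotid artery was studied in Nrf3-/- mice (2 libraries) and in flox mice (3 libraries). The flox animals are the controls of both vessels and carry floxed alleles. The labels give neither the part of the gene removed, nor the cells it was removed in, nor the strain, age or sex of the mice, nor whether each replicate is a separate animal, so p-values measure the spread between these libraries, which may be technical.

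A collagen chain is made in the endoplasmic reticulum, where prolyl 4-hydroxylases (an alpha subunit such as P4ha1 bound to the beta subunit P4hb) hydroxylate prolines that hold the triple helix together and lysyl hydroxylases (Plod1, Plod2, Plod3) prepare lysines for glycosylation and cross-linking. The chaperone Hsp47, the product of Serpinh1, binds the folded helix until it leaves for the Golgi, and outside the cell the propeptides are cut off, the C-terminal one by Bmp1 with Pcolce as its enhancer. In an injured artery, smooth muscle cells and fibroblasts lay down fibrillar collagen while the inner layer thickens.

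Library totals were 43698644 to 48392496 counts in femoral knockouts, 51092766 to 55998563 in femoral controls, 47986275 to 49671909 in carotid knockouts and 51067573 to 54818855 in carotid controls. Every knockout library was therefore smaller than every control library. Nfe2l3 had 11, 2 and 0 counts in femoral knockouts, against 48, 81 and 37 in femoral controls, and 9 and 8 counts in carotid knockouts, against 57, 75 and 85 in carotid controls. Of 5 smooth muscle markers (Acta2, Myh11, Tagln, Cnn1, Smtn), 0 passed the knockout test averaged over both vessels in edgeR, with 1 at an unadjusted p under 0.05 and 0 in DESeq2, and all 5 were present in every library. Their fitted changes were all negative, from -0.43 to -0.01 with a median of -0.23, beside a median of -0.20 for the 10 genes. The summed level of these 5 was 7199 to 13092 CPM in femoral knockouts, 11748 to 13814 CPM in femoral controls, 6650 to 9955 CPM in carotid knockouts and 7561 to 12233 CPM in carotid controls, which overlapped in both vessels. Of 5 chondrocyte markers (Acan, Col2a1, Sox9, Comp, Matn3), 1 fell on average, the cartilage proteoglycan gene Acan at -1.18 ± 0.25 (SE, edgeR adjusted p = 0.0232). The median of the 5 was -1.16 on average and -1.41 in the femoral artery, where all 5 were negative, against 0.07 in the carotid artery, where 2 were. Their summed level was 232 to 381 CPM in femoral knockouts, 316 to 557 CPM in femoral controls, 219 to 232 CPM in carotid knockouts and 214 to 261 CPM in carotid controls. The Acan call was lost without femoral control replicate 3 (0.0536), carotid control replicate 3 (0.0503) or carotid knockout replicate 1 (0.0894) and with a term for skeletal muscle marker levels (0.0568). The 5 T cell markers (Cd3e, Cd3d, Cd3g, Cd5, Trac) all rose in that test, and their summed level was 25.9 to 33.4 CPM in femoral knockouts, 7.99 to 14.4 CPM in femoral controls, 22.5 to 30.2 CPM in carotid knockouts and 3.56 to 6.93 CPM in carotid controls. Of 5 macrophage markers (Csf1r, Adgre1, Cd68, Itgam, Lyz2), 1 rose, with summed levels of 2203 to 4034 CPM in femoral knockouts, 1669 to 2361 CPM in femoral controls, 2850 to 3592 CPM in carotid knockouts and 2353 to 3929 CPM in carotid controls. The 7 skeletal muscle markers (Acta1, Myh4, Myh1, Ckm, Tnnt3, Mylpf, Eno3) varied most between libraries, at 164 to 1226 CPM in femoral knockouts, 483 to 4618 CPM in femoral controls, 13.9 to 422 CPM in carotid knockouts and 28.2 to 598 CPM in carotid controls. Their fitted knockout changes were all negative in the femoral artery (median -2.16) and on average (median -1.29). In the carotid artery 6 were negative (median -0.51). EdgeR called 0 of the 7 in these 3 comparisons. Of 5 fibroblast markers (Pdgfra, Dpt, Lum, Dcn, Pi16), 0 were called on average in edgeR and 1 in DESeq2 (Pdgfra). The averaged median was 0.03, with 4 fitted changes positive and 1 negative. Their summed level was 4550 to 5025 CPM in femoral knockouts, below the 5265 to 5747 CPM of femoral controls. In the carotid artery it was 4213 to 5720 CPM in knockouts and 3772 to 4877 CPM in controls, which overlapped. None of these markers was at 0 in any library. Of 5 endothelial markers (Pecam1, Cdh5, Kdr, Tek, Vwf), 0 were called on average in edgeR or DESeq2. Their median was -0.24 in the femoral artery, with 4 negative, and 0.23 in the carotid artery, with 0 negative. Of 5 adipocyte markers (Adipoq, Plin1, Lep, Cfd, Fabp4), 0 were called on average in either, with a median of -0.12. The part of smooth muscle, fibroblast, endothelial, adipocyte, chondrocyte, T cell and macrophage content in the results that follow was not tested. Values from a fit with a skeletal muscle term are given where they end a call. In whole tissue, fewer cells of a type and less RNA per cell cannot be told apart.

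Levels are given as CPM, a gene's counts scaled to a common library size after adjustment by the trimmed mean of M-values. Knockout effects are fitted log2 changes of knockout over control, in the femoral artery, in the carotid artery and as the average of the 2 vessel effects. A gene counted as risen or fallen where edgeR's quasi-likelihood test gave a Benjamini-Hochberg adjusted p under 0.05, the adjustment being made over the 21343 genes. In the averaged comparison 3 of the 10 genes fell (Serpinh1, P4ha1 and P4ha2) and none rose, while 2.00% of all genes tested were called lower, 4.31% higher and 6.31% in either direction. The median averaged change was -0.20 for the 10 genes and -0.02 for all genes tested, and 9 of the 10 fitted changes were negative, against 52.6% of all genes. In the femoral artery 1 of 10 fell (Serpinh1), with 0.665% of all genes called lower, 1.84% higher and 2.51% in either direction (535 genes, or 1224 with the replicate number as a block). In the carotid artery 0 of 10 were called in edgeR, with 0.262% of all genes called lower and 0.923% in either direction, 5 of the 10 at an unadjusted p under 0.05 (14.5% of all genes) and 2 called by DESeq2 (Serpinh1 and P4ha1, with 4.64% of all genes). The test of the carotid against the femoral effect called 0 of 10 in edgeR and 0 in DESeq2, with 1 at an unadjusted p under 0.05. Of all genes 0.00469% were called there by edgeR and 0.801% by DESeq2, and 8.50% had an unadjusted p under 0.05.

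**Figure D1:**
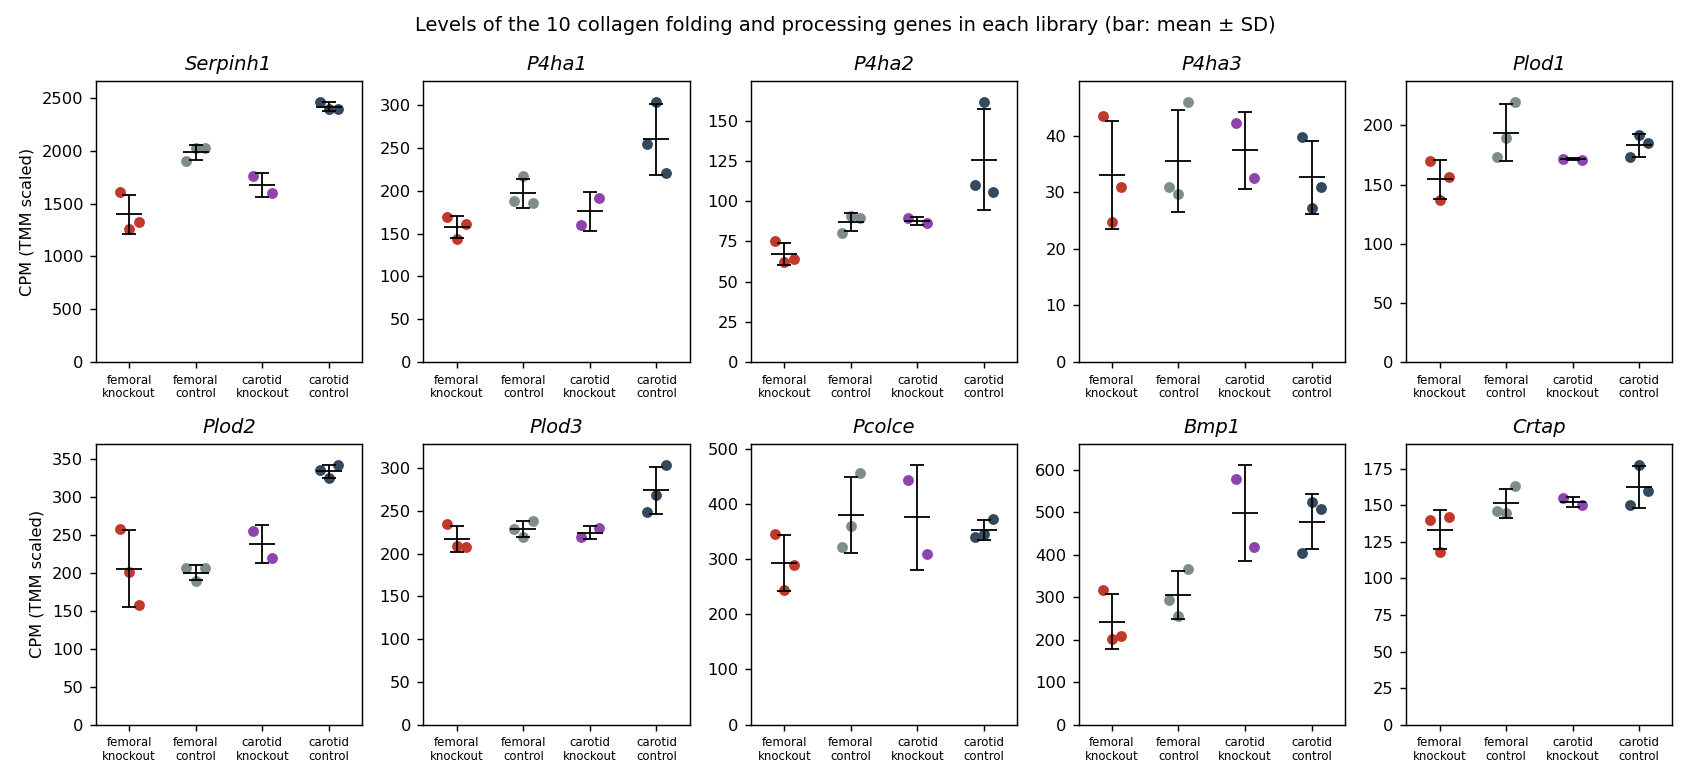
Level of each of the 10 genes in each library, in CPM on a linear axis from 0. Points are libraries and bars are the mean ± SD of each group (n = 3, or 2 for carotid knockouts). Serpinh1 sits at 1259 to 1759 CPM in the 5 knockout libraries and at 1904 to 2464 CPM in the 6 controls.

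The upstream sequences of the genes called in the averaged comparison are shown because these are the members that passed that test. They are RefSeq's on GRCm38.p6, read 5′ to 3′ on the strand of the gene. Capitals mark matches, on either strand, to the core of the hypoxia response element (ACGTG or GCGTG), to which the hypoxia-inducible factors bind. Serpinh1 covers chr7:99353240-99353489 on the minus strand, P4ha1 covers chr10:59323046-59323196 on the plus strand and P4ha2 covers chr11:54100674-54100923 on the plus strand. The P4ha1 stretch stops at 151 bases, where RefSeq's earliest transcript of the gene begins, and the other two hold 250 bases.
Serpinh1: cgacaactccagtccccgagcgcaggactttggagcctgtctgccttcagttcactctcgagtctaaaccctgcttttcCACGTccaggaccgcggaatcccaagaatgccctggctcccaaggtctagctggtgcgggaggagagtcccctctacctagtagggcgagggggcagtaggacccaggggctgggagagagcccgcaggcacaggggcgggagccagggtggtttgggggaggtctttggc
P4ha1: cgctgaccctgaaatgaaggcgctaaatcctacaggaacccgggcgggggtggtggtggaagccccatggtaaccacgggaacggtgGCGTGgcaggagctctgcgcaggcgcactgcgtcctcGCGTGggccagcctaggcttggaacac
P4ha2: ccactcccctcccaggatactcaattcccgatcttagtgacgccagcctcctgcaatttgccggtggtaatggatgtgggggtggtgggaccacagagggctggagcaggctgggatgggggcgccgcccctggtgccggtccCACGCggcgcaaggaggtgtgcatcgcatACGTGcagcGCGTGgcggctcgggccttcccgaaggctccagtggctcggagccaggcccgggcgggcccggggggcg

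The Serpinh1 sequence held 1 core match, 171 bases before the gene's first base, the P4ha1 sequence held 2 and the P4ha2 sequence held 3. RefSeq gave windows for 8 of the 10 genes, without Plod2 and Bmp1. Over the 250 bases before the annotated start, 7 of these 8 held ACGTG or GCGTG, as did 38.6% of 32851 windows of the same length. ACGTG alone was in 4 of 8 and in 16.6% of all windows, and GCGTG alone in 6 of 8 and in 28.2%. The antioxidant response element core TGACNNNGC, the sequence bound by CNC factors such as Nrf3 with small Maf proteins, was in 1 of 8 (P4ha1, outside the stretch printed) and in 10.2% of all windows. Neither the unfolded protein response element TGACGTGG, which contains ACGTG and was in 0.563% of all windows, nor the ER stress response element (0.113%) was found in the 8 windows. The heat shock element core GAANNTTC, in 6.69% of all windows, was not found either. All motifs were read on both strands, and a match is a description of these letters only.

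Serpinh1 (gene ID 12406, GRCm38 chromosome 7, 99345375 to 99353239, minus strand) encodes Hsp47, the chaperone reserved for collagen. It had 1605, 1259 and 1326 CPM in femoral knockouts, against 1904, 2025 and 2030 CPM in femoral controls. In the carotid artery it had 1759 and 1598 CPM in knockouts, against 2464, 2399 and 2395 CPM in controls. Each knockout library lay below each control library of its vessel, and also below each control of the other vessel. The log2 change was -0.51 ± 0.11 in the femoral artery (SE, edgeR adjusted p = 0.0404), -0.53 ± 0.12 in the carotid artery (edgeR adjusted p = 0.0759) and -0.52 ± 0.08 on average (edgeR adjusted p = 0.00639), which is a level 0.699 times that of controls. The carotid effect minus the femoral effect was -0.02 ± 0.16 (edgeR adjusted p = 0.985). The averaged call held without any one of the 11 libraries, at edgeR adjusted p of 0.00395 to 0.0303, and with the skeletal muscle term, at 0.0167.

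The femoral call on its own rested on more of the libraries. Its edgeR adjusted p was 0.0702, 0.149 and 0.138 without femoral control replicate 1, 2 and 3, and 0.141 and 0.06 without femoral knockout replicate 2 and 3. Without carotid libraries, which enter through the shared spread, it was 0.054 and 0.0538 (knockout replicate 1 and 2) and 0.0615 and 0.0532 (control replicate 2 and 3). The skeletal muscle term gave 0.082 and a fit of the femoral libraries alone gave 0.0856, with log2 changes of -0.55 and -0.51.

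P4ha1 (gene ID 18451, chromosome 10, 59323245 to 59373304, plus strand) encodes the most widely expressed catalytic subunit of the prolyl 4-hydroxylases. It had 169, 144 and 161 CPM in femoral knockouts, against 188, 217 and 186 CPM in femoral controls, and 160 and 192 CPM in carotid knockouts, against 255, 304 and 221 CPM in carotid controls. The groups did not overlap in either vessel, although carotid knockout replicate 2 was above 2 of the femoral controls. The log2 change was -0.32 ± 0.13 in the femoral artery (SE, edgeR adjusted p = 0.214), -0.57 ± 0.15 in the carotid artery (edgeR adjusted p = 0.113) and -0.44 ± 0.10 on average (edgeR adjusted p = 0.0303). The averaged call was lost without carotid knockout replicate 1 (0.146), femoral control replicate 2 (0.0719) or 3 (0.0506), femoral knockout replicate 1 (0.0536) or 2 (0.0719), or carotid control replicate 2 (0.0511). It was also lost with the skeletal muscle term (0.0609). With the replicate number as a block it was kept with the numbers of the titles (0.0215) and lost with those of the descriptions (0.0733), which differ for 1 carotid knockout library.

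P4ha2 (gene ID 18452, chromosome 11, 54100924 to 54131668, plus strand) encodes a second catalytic subunit, prominent in cartilage, bone and endothelium. It had 75.1, 62.5 and 64 CPM in femoral knockouts, against 80.4, 90.7 and 89.7 CPM in femoral controls, and 89.8 and 86.3 CPM in carotid knockouts, against 110, 162 and 106 CPM in carotid controls. Again the groups did not overlap in either vessel, and carotid control replicate 2 stood well above the other carotid controls. The log2 change was -0.37 ± 0.15 in the femoral artery (SE, edgeR adjusted p = 0.213), -0.52 ± 0.17 in the carotid artery (edgeR adjusted p = 0.2) and -0.44 ± 0.12 on average (edgeR adjusted p = 0.0481). This call was the weakest of the 3. With the replicate number as a block it was 0.0535. It was 0.0622, 0.107 and 0.0996 without femoral control replicate 1, 2 and 3, then 0.0668, 0.104 and 0.0698 without femoral knockout replicate 1, 2 and 3. Without carotid knockout replicate 1 or 2 it was 0.156 or 0.124.

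P4ha3 (gene ID 320452, chromosome 7, 100285489 to 100319699, plus strand), the third catalytic subunit, did not follow the other two. Its level was 24.8 to 43.5 CPM in femoral knockouts, 29.7 to 46 CPM in femoral controls, 32.6 to 42.2 CPM in carotid knockouts and 27.3 to 39.8 CPM in carotid controls. These ranges overlapped in both vessels, and the averaged log2 change was 0.05 ± 0.18 (SE, edgeR adjusted p = 0.909), whose sign changed with the library left out. Per base of gene model, P4ha1 made up 47.4 ± 2.31% of the counts of the 3 subunits in femoral knockouts and 47.8 ± 3.51% in femoral controls (SD, n = 3 each). Its share was 44.3 ± 5.03% in carotid knockouts (n = 2) and 48.2 ± 0.769% in carotid controls (n = 3). P4ha3 took 16.8 ± 2.79% in femoral knockouts and 14.8 ± 3.47% in femoral controls, and 16.3 ± 3.23% in carotid knockouts and 10.7 ± 3.02% in carotid controls. No test was made of these shares.

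P4hb, the beta subunit and also a disulphide isomerase with roles outside collagen, was not called by edgeR in the femoral, carotid or averaged knockout comparison (averaged log2 change -0.15 ± 0.06, SE, edgeR adjusted p = 0.18). Its carotid change was -0.26 ± 0.09 (SE, edgeR adjusted p = 0.217), which DESeq2 called lower (adjusted p = 0.0243). The 3 alpha subunits summed per base amounted to 26.2, 21.9 and 25.3 per 100 of P4hb in femoral knockouts, against 28.2, 30.8 and 29.5 in femoral controls. It was 26.5 and 27.6 in carotid knockouts, against 30.3, 35.7 and 26 in carotid controls. The femoral groups were apart on this ratio, and both carotid knockouts lay inside the control range.

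**Figure D2:**
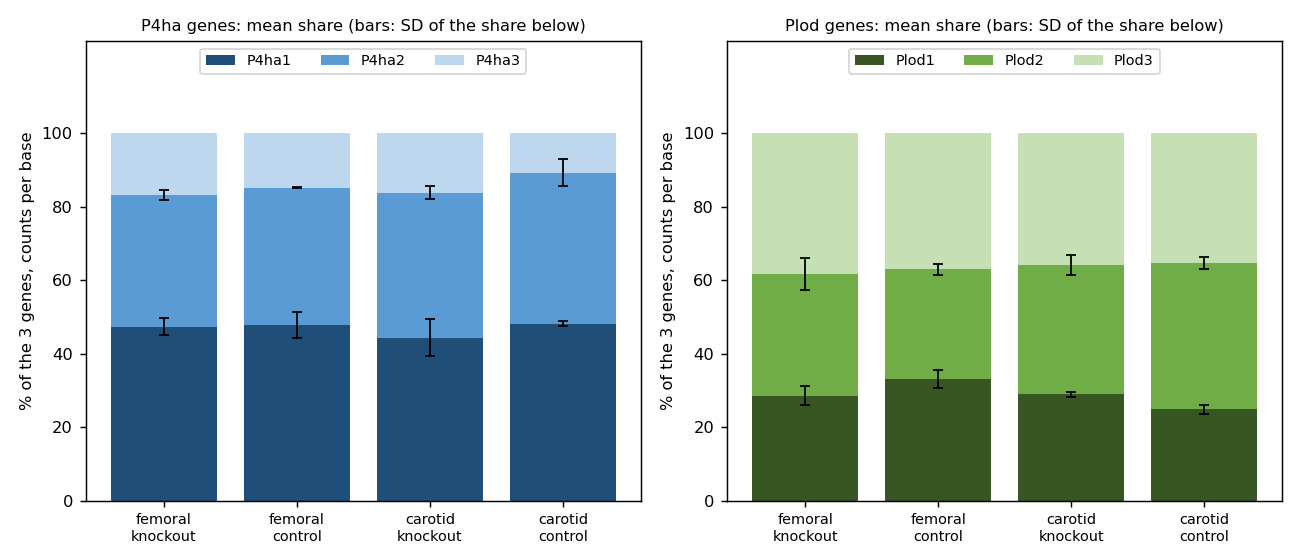
Share of each paralog in the counts per base of the 3 P4ha genes and of the 3 Plod genes, as group means in percent. Bars are the SD of the share below them (n = 3, or 2 for carotid knockouts), and Plod2 reaches 39.8% in carotid controls, against 30% in femoral controls.

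The lysyl hydroxylases did not pass the test of the knockout in either vessel or on average. Plod1 (gene ID 18822, chromosome 4, 147909753 to 147936776, minus strand), which acts on lysines of the triple helix, had 170, 137 and 156 CPM in femoral knockouts, against 173, 189 and 220 CPM in femoral controls, and 172 and 171 CPM in carotid knockouts, against 173, 192 and 185 CPM in carotid controls. No knockout library reached a control of its vessel, but the gap to the nearest control was narrow. The averaged change was -0.21 ± 0.08 on the log2 scale (SE, edgeR adjusted p = 0.158). Plod3 (gene ID 26433, chromosome 5, 136987019 to 136996646, plus strand) also adds glucose to hydroxylysine that already carries galactose. Its level was 208 to 235 CPM in femoral knockouts and 219 to 238 CPM in femoral controls. In the carotid artery it was 219 to 230 CPM in knockouts and 249 to 304 CPM in controls. Its groups overlapped in the femoral artery only, and the averaged change was -0.18 ± 0.07 (SE, edgeR adjusted p = 0.172). Plod3 overlaps Znhit1 on the other strand, which had up to 2423 counts in a library, and Plod2 overlaps B430319G15Rik on the other strand, which had up to 528. Since the strand setting of the counting is not given in the sources used here, reads of these pairs cannot be told apart with certainty.

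Plod2 (gene ID 26432, chromosome 9, 92542223 to 92608428, plus strand) hydroxylates lysines of the collagen telopeptides, a step known from fibrotic tissue. It had 258, 201 and 157 CPM in femoral knockouts, against 206, 189 and 206 CPM in femoral controls, and 255 and 220 CPM in carotid knockouts, against 335, 325 and 342 CPM in carotid controls. Femoral knockouts lay on both sides of their controls, and both carotid knockouts lay below theirs. The log2 change was 0.03 ± 0.15 in the femoral artery (SE, edgeR adjusted p = 0.935) and -0.49 ± 0.17 in the carotid artery (edgeR adjusted p = 0.219). Among the 10 genes Plod2 had the smallest unadjusted p for a difference between the vessel effects. The carotid minus the femoral effect was -0.52 ± 0.23, and it did not pass after adjustment over all genes (edgeR adjusted p = 0.581).

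Plod2 was also the one member that edgeR called between the control arteries, where 6.21% of all genes tested were called in either direction, 2.99% were called higher in the carotid artery and 3.22% lower. By DESeq2 4 members were called there (Bmp1, P4ha1, P4ha2 and Plod2), with 10.8% of all genes, and 6 had an unadjusted p under 0.05 in edgeR, with 20.2% of all genes. The log2 change of Plod2, carotid control over femoral control, was 0.74 ± 0.15 (SE, edgeR adjusted p = 0.017), a ratio of 1.67. That call was lost without femoral control replicate 1 (0.0522), 2 (0.0809) or 3 (0.0546), without carotid control replicate 3 (0.0529) and with the skeletal muscle term (0.122). In the same comparison 6 of the 10 genes had all carotid controls above all femoral controls, namely Serpinh1, P4ha1, P4ha2, Plod2, Plod3 and Bmp1, and 11.7% of all genes did. Vessel and injury method (ligation in the carotid artery, a wire in the femoral artery) cannot be told apart. Per base, Plod2 made up 35.1 ± 2.8% of the 3 Plod genes in carotid knockouts and 39.8 ± 1.72% in carotid controls, and 33 ± 4.39% in femoral knockouts and 30 ± 1.48% in femoral controls (SD). By the group means of this measure Plod2 was the most abundant of the 3 in carotid controls and the least in femoral controls. In femoral control replicate 1, however, Plod2 (31.6%) was above Plod1 (30.3%).

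Bmp1 (gene ID 12153, chromosome 14, 70474555 to 70520713, minus strand) encodes the protease that removes the C-propeptide of fibrillar collagens and also activates lysyl oxidase. It had 318, 201 and 209 CPM in femoral knockouts, against 294, 255 and 367 CPM in femoral controls, and 579 and 418 CPM in carotid knockouts, against 403, 524 and 507 CPM in carotid controls. The groups overlapped in both vessels, and the averaged knockout change was -0.14 ± 0.16 (SE, edgeR adjusted p = 0.66). Between the knockout arteries Bmp1 was the member called, at 1.04 ± 0.23 for carotid knockout over femoral knockout (SE, edgeR adjusted p = 0.0283), a ratio of 2.05, and 4.91% of all genes were called there, 3.05% as higher and 1.86% as lower. Between the control arteries its log2 change was 0.65 ± 0.21 (SE, edgeR adjusted p = 0.106), and the difference of the knockout effects was 0.39 ± 0.31 (SE, edgeR adjusted p = 0.754). The call between knockout arteries was lost without femoral knockout replicate 2 (0.104) or 3 (0.0831), without carotid knockout replicate 1 (0.233), in a fit of those 2 groups alone (0.0859) and with the skeletal muscle term (0.0971). Of the 10 genes 4 had both carotid knockouts above all femoral knockouts (P4ha2, Plod1, Bmp1 and Crtap), as had 18.6% of all genes.

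Pcolce (gene ID 18542, chromosome 5, 137605105 to 137611764, minus strand), which speeds up the cleavage by Bmp1, had 245 to 346 CPM in femoral knockouts, 322 to 456 CPM in femoral controls, 309 to 444 CPM in carotid knockouts and 341 to 374 CPM in carotid controls. Both pairs of ranges overlapped. The averaged change was -0.14 ± 0.13 (SE, edgeR adjusted p = 0.57). Crtap (gene ID 56693, chromosome 9, 114375131 to 114390712, minus strand), the scaffold of the prolyl 3-hydroxylation complex, had 118 to 142 CPM in femoral knockouts, 145 to 163 CPM in femoral controls, 150 to 155 CPM in carotid knockouts and 150 to 178 CPM in carotid controls. Only its femoral groups were apart, and the averaged change was -0.14 ± 0.08 (SE, edgeR adjusted p = 0.328). Crtap overlaps 4930520O04Rik on the other strand, which had up to 139 counts.

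Counted over all 10 genes, 5 had every femoral knockout library below every femoral control (Serpinh1, P4ha1, P4ha2, Plod1 and Crtap), against 12.1% of all genes tested. The carotid artery showed this for 6 (Serpinh1, P4ha1, P4ha2, Plod1, Plod2 and Plod3), against 15.0% of all genes. Both vessels showed it for Serpinh1, P4ha1, P4ha2 and Plod1, which is 4 of 10, against 3.28% of all genes. None of the 10 had every knockout library above every control in either vessel, while 13.3% of all genes did in the femoral artery and 16.4% in the carotid artery.

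**Figure D3:**
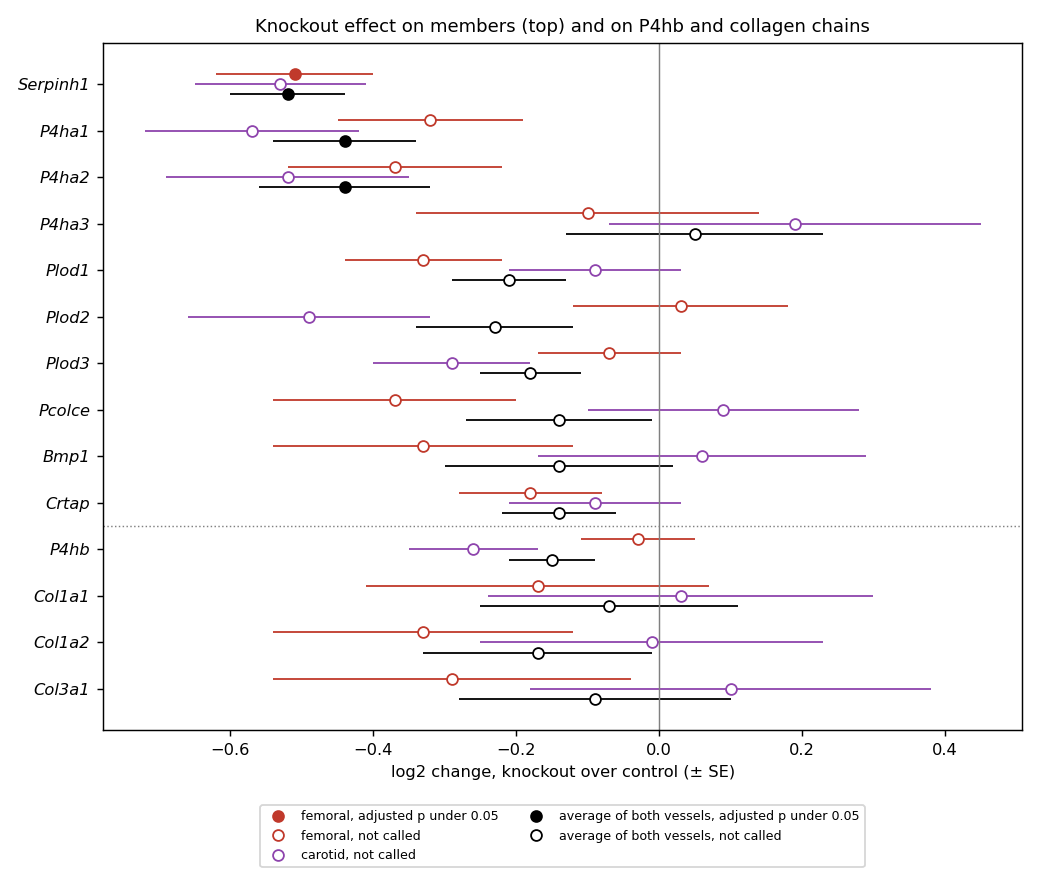
Fitted log2 change of knockout over control with its SE for the 10 genes (above the dotted line) and for P4hb and the main fibrillar chains (below it), in the femoral artery, the carotid artery and on average. Filled points passed an adjusted p under 0.05; Serpinh1, P4ha1 and P4ha2 have filled averages at -0.52, -0.44 and -0.44.

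Per kilobase of gene model, Serpinh1 was the most abundant of the 10 in every group, at 572 ± 75.2 CPM per kb in femoral knockouts, 813 ± 29.2 in femoral controls, 687 ± 46.7 in carotid knockouts and 990 ± 15.9 in carotid controls (SD, n = 3, 3, 2 and 3). Pcolce came next at 148 ± 25.5 CPM per kb in femoral knockouts, 192 ± 35.1 in femoral controls, 191 ± 48.3 in carotid knockouts and 179 ± 9.13 in carotid controls. P4ha3 was the lowest in every group, at group means of 13.5 to 15.5 CPM per kb, followed by P4ha2 at 28.7 to 53.7. Between them, Crtap, Plod1, Plod2, Plod3, Bmp1 and P4ha1 lay at 37.9 to 94.8 CPM per kb, and neighbours in that order were mostly within their spread. For example, Plod2, Plod1 and Bmp1 in femoral knockouts were at 55.3 ± 13.6, 47.4 ± 5.07 and 44.1 ± 11.9 CPM per kb. Bmp1 stood seventh in femoral knockouts and sixth in femoral controls, against the third place in carotid knockouts and the fifth in carotid controls. In CPM without length, Serpinh1 made up 47.8, 48.4 and 48.4% of the 10 genes' sum in femoral knockouts, against 53.3, 54.4 and 50.7% in femoral controls. It made up 45.4 and 46.9% in carotid knockouts, against 54.5, 50.8 and 51.8% in carotid controls, so that no knockout library reached a control.

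The genes of the main substrate did not pass the test. Col1a1, Col1a2 and Col3a1, the main chains of collagens I and III, had averaged log2 changes of -0.07 ± 0.18, -0.17 ± 0.16 and -0.09 ± 0.19 (SE, edgeR adjusted p = 0.85, 0.578 and 0.816). EdgeR did not call them in either vessel, and the averaged sign of Col1a1 and Col3a1, but not of Col1a2, changed with the library left out. Serpinh1 was therefore set against its substrate within each library, as counts per 100 counts of the 3 chains. The ratio was 3.79, 5.02 and 5.11 in femoral knockouts, against 6, 6.1 and 4.27 in femoral controls, and 3.14 and 4.21 in carotid knockouts, against 5.69, 5.18 and 5.2 in carotid controls. The femoral groups overlapped through femoral control replicate 3, the carotid groups did not, and the mean difference over the vessels was -1.25 (exact two-sided permutation test within vessels, p = 0.035, with 0.005 the smallest of 200 arrangements). The same-numbered femoral libraries differed by -2.21, -1.08 and 0.84, knockout minus control. With labels exchanged only within these pairs, an alternative chosen after seeing the data, the exact permutation p was 0.05 (80 arrangements, 0.0125 the smallest), which is not under 0.05. By vessel the difference was -0.818 (exact permutation p = 0.3) and -1.68 (exact permutation p = 0.1, the smallest a carotid test can give). Without femoral control replicate 1 or 2 it was -1.11 or -1.09 (exact permutation p = 0.05 and 0.06), and without femoral knockout replicate 1 it was -1.04 (exact permutation p = 0.06). Without carotid control replicate 1, 2 or 3 the exact permutation p was 0.05 each time, and without carotid knockout replicate 1 the difference was -0.981 (exact permutation p = 0.0625).

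The other 9 genes summed gave 4.15, 5.35 and 5.46 counts per 100 counts of the 3 chains in femoral knockouts, against 5.26, 5.11 and 4.15 in femoral controls. They gave 3.78 and 4.77 in carotid knockouts, against 4.75, 5.02 and 4.84 in carotid controls. These groups overlapped in both vessels and the mean difference over the vessels was -0.227, against -1.25 for Serpinh1 alone. All 10 genes summed differed by -1.48, with -0.675 in the femoral artery and -2.28 in the carotid artery. No p is given for these sums, since their members were chosen with earlier results known. Serpinh1 was chosen in the same way and had already been called lower. The permutation p of its ratio is therefore not independent support for that call. P4ha1 relative to the chains also overlapped in the femoral artery, at 0.399, 0.574 and 0.62 in knockouts against 0.593, 0.654 and 0.391 in controls. In the carotid artery it was 0.285 and 0.506 in knockouts, against 0.588, 0.656 and 0.48 in controls.

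**Figure D4:**
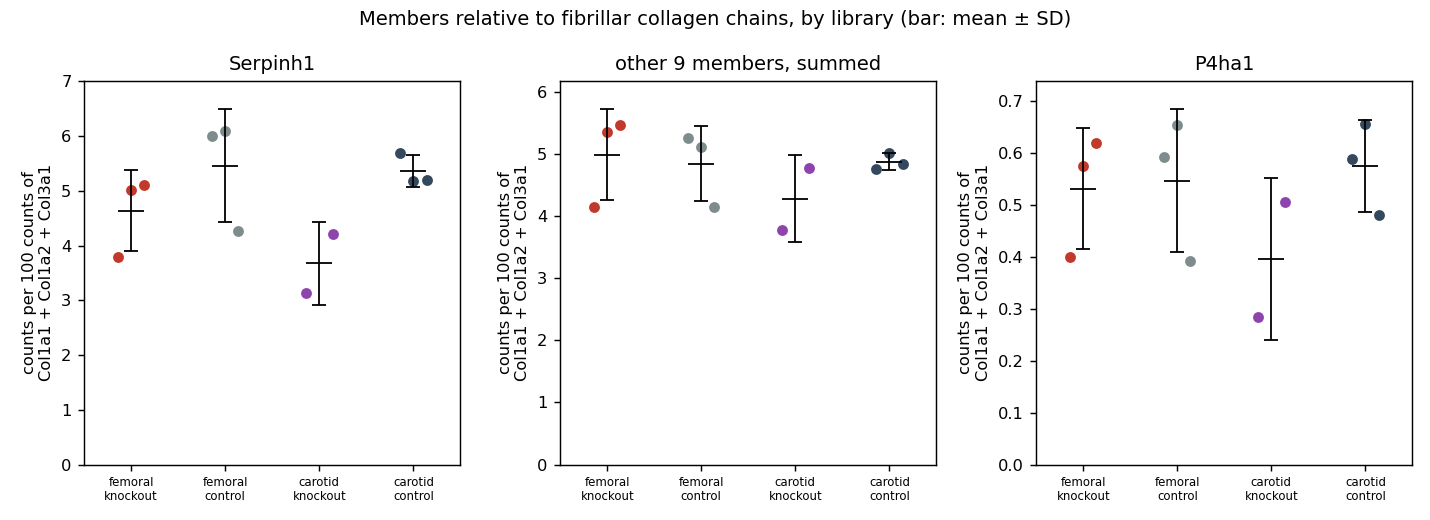
Counts of Serpinh1, of the other 9 genes summed and of P4ha1 per 100 counts of Col1a1, Col1a2 and Col3a1 in each library, on linear axes from 0. Points are libraries and bars are the mean ± SD (n = 3, or 2 for carotid knockouts); Serpinh1 is at 3.14 and 4.21 in carotid knockouts and at 5.18 to 5.69 in carotid controls.

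Around the 10 genes, the list with most calls was that of general chaperones and oxidases of the endoplasmic reticulum, which fold secreted proteins of every kind. Of its 18 genes 12 fell in the averaged comparison and none rose, while 2.00% of all genes tested were called lower and 4.31% higher. The median log2 change of the 18 was -0.37, against -0.02 for all genes tested. The 4 with the smallest p were Gpx8, a peroxidase of the endoplasmic reticulum, at -0.47 ± 0.08 (SE, edgeR adjusted p = 0.00857), Dnajc3, a co-chaperone that restrains the kinase PERK, at -0.40 ± 0.07 (0.0126), Creld2 at -0.63 ± 0.13 (0.02) and Manf at -0.59 ± 0.12 (0.021), both induced when unfolded proteins build up. Gpx8 had 101, 121 and 116 CPM in femoral knockouts, against 168, 191 and 162 CPM in femoral controls, and 117 and 129 CPM in carotid knockouts, against 164, 152 and 143 CPM in carotid controls. Creld2 had 54.9, 46.3 and 42.2 CPM in femoral knockouts, against 69, 78.4 and 46.8 CPM in femoral controls, and 48.1 and 54.5 CPM in carotid knockouts, against 94, 90 and 88.3 CPM in carotid controls. Dnajc3 had 209, 200 and 191 CPM in femoral knockouts, against 254, 258 and 223 CPM in femoral controls, and 198 and 219 CPM in carotid knockouts, against 325, 286 and 281 CPM in carotid controls. Gpx8 and Dnajc3 did not overlap in either vessel, while Creld2 overlapped in the femoral artery through femoral control replicate 3. The number called was sensitive to single libraries. It was 4 without femoral control replicate 1 or 2 or femoral knockout replicate 2, 5 without femoral knockout replicate 1 or carotid knockout replicate 2, 6 without carotid control replicate 2 and 1 without carotid knockout replicate 1. With the skeletal muscle term it was 2 (Dnajc3 and Gpx8).

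In the femoral artery 1 of these 18 fell in edgeR, where 0.665% of all genes tested were called lower. This was Gpx8 at -0.63 ± 0.10 (SE, edgeR adjusted p = 0.0193). Its call was lost without femoral control replicate 2 (0.0782) or femoral knockout replicate 1 (0.0767) and with the skeletal muscle term (0.0533). In the carotid artery 0 of 18 were called in edgeR, with 0.923% of all genes called in either direction. An unadjusted p under 0.05 was reached by 14, all lower, against 14.5% of all genes in either direction. DESeq2 called 13, against 4.64% of all genes. The averaged calls of Dnajc3, Creld2 and Manf were lost without carotid knockout replicate 1 (0.0729, 0.0964 and 0.102). That of Creld2 was also lost without femoral knockout replicate 2 (0.0514), and that of Manf without femoral knockout replicate 1 (0.0507).

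Lists closer to the collagen enzymes held fewer calls, and the difference between lists was not tested. Of all genes tested, edgeR called 6.31% in the averaged comparison in either direction. DESeq2 called more genes there, as given under the processing alternatives. The counts at an unadjusted p under 0.05 have no such share beside them here, so they are not read as a result about these lists. Of 15 partner and cofactor enzymes, which include P4hb, the prolyl 3-hydroxylases, the collagen galactosyltransferases and the FKBP isomerases, 1 fell on average in edgeR, with 5 at an unadjusted p under 0.05 and 3 in DESeq2 (Fkbp11, Fkbp14 and Fkbp7). This was Fkbp14, a prolyl isomerase of the endoplasmic reticulum, at -0.29 ± 0.06 (SE, edgeR adjusted p = 0.02). It had 55.8, 52.6 and 51.2 CPM in femoral knockouts, against 63.2, 69.4 and 65.8 CPM in femoral controls, and 53.4 and 55.4 CPM in carotid knockouts, against 62.7, 69.1 and 63.5 CPM in carotid controls. Every knockout library was below every control, and the call was lost without femoral control replicate 2 (0.0585) or carotid knockout replicate 1 (0.111) or 2 (0.0552) and with the skeletal muscle term (0.0532). Of 12 genes tested for the export of collagen from the endoplasmic reticulum, such as Mia3 and Sec23a, 0 were called on average in edgeR, with 4 at an unadjusted p under 0.05 and 0 in DESeq2. Of 13 other propeptidases and cross-linking enzymes, such as Adamts2 and Lox, 0 were called in edgeR, with 4 at an unadjusted p under 0.05 and 1 in DESeq2. Of 11 fibrillar collagen genes 0 were called in edgeR, with 0 at an unadjusted p under 0.05 and 0 in DESeq2. Median averaged log2 changes were -0.20 for partner enzymes, -0.12 for export, -0.07 for propeptidases and cross-linking and -0.19 for fibrillar collagens. In the femoral artery alone the median of the fibrillar collagens was -0.31, beside -0.29 for the ER chaperones and oxidases.

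Because P4ha1, P4ha2 and Plod2 are known targets of hypoxia-inducible factors, 15 other hypoxia targets were counted too. On average 1 of 15 fell and none rose, with a median of 0.07. Of all genes tested 2.00% were called lower there and 6.31% in either direction. In the femoral artery 1 of 15 fell and 1 rose, with 2.51% of all genes called in either direction. Such small counts are not read as a result about hypoxia targets. Car9, a carbonic anhydrase of the cell surface, had 0.106, 0.248 and 0.0622 CPM in femoral knockouts, against 2.12, 0.813 and 1.27 CPM in femoral controls, and 1.13 and 1.21 CPM in carotid knockouts, against 2.66, 4.69 and 2.17 CPM in carotid controls. The groups did not overlap in either vessel, at 3 to 11 counts in the femoral knockouts, and the averaged change was -2.38 ± 0.39 (SE, edgeR adjusted p = 0.0077). The femoral change of Car9 was -3.33 ± 0.55 (SE, edgeR adjusted p = 0.0188), lost without femoral control replicate 3 (0.0565) or femoral knockout replicate 1 (0.0964). Slc2a1, the glucose transporter GLUT1, went the other way in the femoral artery, at 96.9, 86.2 and 85.7 CPM in knockouts against 54.4, 48.8 and 62.3 CPM in controls. Its femoral change was 0.70 ± 0.15 (SE, edgeR adjusted p = 0.0427), lost without femoral control replicate 1 (0.0889), 2 (0.159) or 3 (0.0918), femoral knockout replicate 1 (0.15) or 2 (0.122) or carotid knockout replicate 1 (0.0516) or 2 (0.0518), and with the skeletal muscle term (0.102).

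**Figure D5:**
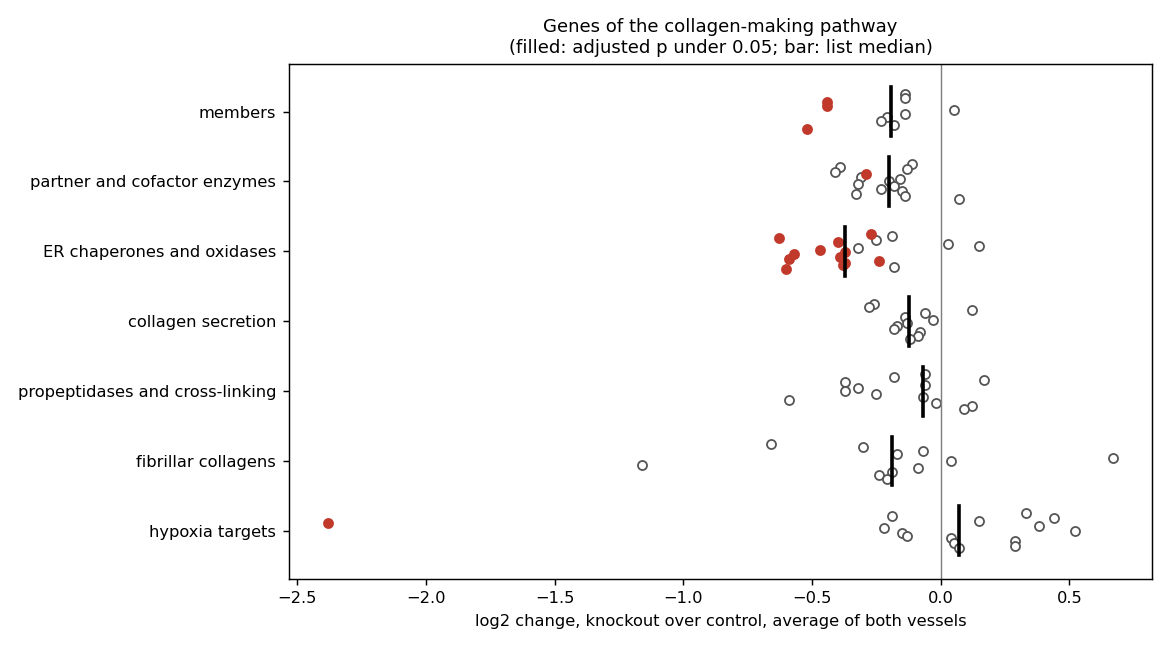
Averaged log2 change of knockout over control for each gene tested in 7 lists of the collagen-making pathway. Each point is a gene, filled where its adjusted p was under 0.05, and the black bar is the median of its list; the bar of the ER chaperones and oxidases stands at -0.37 and that of the 10 members at -0.20.

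The genes whose levels ran most like those of the 3 called genes were found by Pearson's r of log2 CPM over the 11 libraries, among 10442 genes with a mean of at least 10 CPM. These libraries share the group structure, so r describes vessel and genotype differences as well as the spread within groups. For Serpinh1 the 5 nearest were Tmed3 (r = 0.959), a cargo receptor of the early secretory pathway, Josd2 (0.938), Eva1b (0.937), Plat (0.936), which encodes tissue plasminogen activator, and Pdia3 (0.932), a disulphide isomerase for glycoproteins. P4ha1 and P4ha2 ran at 0.862 and 0.868 with Serpinh1, against 0.627, 0.688 and 0.640 for Col1a1, Col1a2 and Col3a1. Passing the same averaged test, as P4ha1 and P4ha2 did and the chains did not, itself favours a higher r with Serpinh1. P4ha3 was the member least like Serpinh1, at 0.189. For P4ha1 the nearest were Hspa1a (0.951) and Hspa1b (0.930), heat shock proteins whose near-identical sequences make their counts uncertain, with Jagn1 (0.931), P4ha2 (0.924) and Slc15a4 (0.919). Hspa1a and Hspa1b fell on average, at -1.60 ± 0.34 and -1.61 ± 0.35 (SE, edgeR adjusted p = 0.0243 and 0.0257). Neither was called in a single vessel. Both were picked for likeness to a called gene, which itself favours such a call. For P4ha2 they were Dusp1 (0.963), ENSMUSG00000080058.2 (0.947), Fosb (0.941), Gpsm2 (0.940) and Jund (0.939). Of these, Dusp1 and Fosb are known as genes that respond within minutes to growth factors and stress. Serpinh1 stood at rank 45 for P4ha1 and at rank 71 for P4ha2.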

How the data were processed

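Polyadenylated RNA of 11 injured arteries was analysed in 4 groups, taken from the labels. The authors deposited raw counts per gene; per the submitters' processing notes, HISAT2, HTSeq, DESeq, DESeq2 and edgeR were used, with no versions or roles, and the build mm9 is named. Gene positions were nonetheless those of GRCm38: of 39064 genes joined to RefSeq by identifier, 99.8% overlapped. The strand setting is not given in the sources used here. In the deposited table, 27 symbols that had been turned into dates were restored.

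Counts were tested in R 4.3.3 with edgeR 4.0.16 (limma 3.58.1), on 21343 genes kept by filterByExpr, with trimmed-mean scaling (factors 0.963 to 1.03), all 4 groups in 1 model (7 residual degrees of freedom) and a common biological variation of 25.6%. Log2 CPM used a prior count of 2. Per-length levels use the deposited gene lengths. Totals of 43698644 to 55998563 counts make counting error small for the 10 genes, the fewest being 1100 counts of P4ha3 in 1 femoral knockout library. Ratios were compared with exact permutations within vessels (Python 3.11.15). The steps were tested on simulated data. Alternatives were DESeq2 1.42.0, RLE size factors, no expression filter, only the groups compared, replicate blocks, a skeletal muscle covariate and leaving out each library.

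Genes named were all 10 members, P4hb, Col1a1, Col1a2, Col3a1, Nfe2l3, at most 4 called genes per list and knockout comparison (smallest p), and the 5 genes most like each called member. Members and lists were chosen with earlier results of these data known. Same-numbered femoral libraries had weakly positive r of their deviations from group means (0.172, 0.180 and 0.115). Knockout and control femoral libraries of different number had r of -0.184 to 0.0114. No label states a pairing, and with 3 libraries per group these values cannot establish one. The main tests did not use the numbers, and replicate blocks were run as an alternative. In the carotid artery the same-numbered r were -0.118 and -0.150. Across vessels, same-numbered controls had r of 0.108, -0.0428 and 0.140, and same-numbered knockouts, by title, 0.131 and 0.104. Controls of different number had r of -0.149 to 0.0284 and knockouts -0.131 to 0.0289. These values cannot establish a pairing either. If an animal gave both vessels, the averaged test treated its libraries as independent. The second carotid knockout library carries number 2 in 1 label and number 3 in another.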

Additional observations from a re-analysis of the deposited data

How the results depend on the processing

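Of 105 results over counts and ratios recomputed under alternatives other than leaving out a library, 66 stayed within 1.5 times the reported count or kept their call. The averaged fall of Serpinh1 kept its call under every alternative run. With the replicate block the averaged count of members stayed within 1.5 times, at 2 (P4ha2 lost), and with the numbers of the descriptions it was 1. The block gave 1224 genes called in the femoral artery, 78 in the carotid artery and 9 for the difference of effects, and 1261 (femoral) and 3 (difference) with the description numbers, where 1 ER chaperone was called in the carotid artery. Pairing the femoral libraries in the Serpinh1 ratio, chosen after seeing the data, left -1.25 with an exact permutation p of 0.05. Pairing controls across vessels gave 2 members under either numbering.

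DESeq2 called 1834 genes (femoral), 990 (carotid), 2609 (averaged), 171 (difference), 2314 (control arteries) and 2085 (knockout arteries), with 2 members and 13 ER chaperones in the carotid artery and 4 members between control arteries. Without the filter it was 1121 (femoral), 444 (carotid) and 17 (difference), with 4 ER chaperones in the carotid artery and 2 members between control arteries. With only the groups compared it was 26 (carotid) and 578 (knockout arteries), and 0 members in the femoral artery and between knockout arteries. The skeletal muscle covariate gave 124 (femoral), 604 (averaged), 0 (difference), 624 (control arteries) and 621 (knockout arteries), with 0 members in the femoral artery and between control or knockout arteries, and 0 femoral and 2 averaged ER chaperones. Per 100 counts of Col1a1 alone the summed 10 genes differed by -6.28. The cause was not tested for any of these.

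Without 1 library at a time, members called ranged from 0 to 1 (femoral), 0 to 0 (carotid), 1 to 3 (averaged), 0 to 0 (difference), 0 to 1 (control arteries) and 0 to 1 (knockout arteries). All genes called ranged from 78 to 1317, 60 to 233, 474 to 1818, 0 to 3, 685 to 1408 and 459 to 1182 in the same order, and ER chaperones from 0 to 1 (femoral), 0 to 3 (carotid) and 1 to 9 (averaged). The Serpinh1 ratio difference ranged from -1.55 to -0.981 and that of the summed genes from -1.99 to -0.96.

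Signs turned for uncalled genes. With the skeletal muscle covariate these were Plod2 femoral (-0.02), Bmp1 carotid (-0.04), Col1a1 carotid (-0.08), Col3a1 carotid (-0.01) and P4ha3 averaged (-0.05), and with description numbers Slc2a1 carotid (0.07), Col1a1 carotid (-0.01), P4ha3 averaged (-0.02) and P4ha2 difference (0.08). Without 1 library the femoral ranges were -0.35 to 0.14 (P4ha3), -0.16 to 0.21 (Plod2), -0.07 to 0.02 (P4hb) and -0.47 to 0.05 (Col1a1). The carotid ranges were -0.01 to 0.37 (P4ha3), -0.20 to 0.32 (Pcolce), -0.20 to 0.27 (Bmp1), -0.22 to 0.07 (Slc2a1), -0.26 to 0.25 (Col1a1), -0.29 to 0.22 (Col1a2) and -0.25 to 0.38 (Col3a1). Averaged, they were -0.08 to 0.16 (P4ha3), -0.22 to 0.04 (Col1a1) and -0.27 to 0.05 (Col3a1), and for the difference of effects -0.10 to 0.09 (Serpinh1) and -0.26 to 0.06 (P4ha2). Between control arteries they were -0.29 to 0.12 (P4ha3), -0.16 to 0.03 (Plod1) and -0.21 to 0.06 (Pcolce), and between knockout arteries -0.03 to 0.42 (P4ha3) and -0.00 to 0.11 (Plod3).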
